A study of Mus musculus with 16 samples.

Results

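Small RNA of adult cardiomyocytes (aCMs) was compared with that of cardiac stem cells (CSCs) over every mature microRNA (miRNA) that passed a filter on low counts. The comparison takes 5 of the 16 libraries of the study, 2 of aCMs and 3 of CSCs, and 718 of the 1818 miRNAs in the table, which hold 99.97% to 99.98% of the counts of each library. The other 1100 miRNAs stayed below the filter, 1044 of them with at least 1 count. The aCMs were freed from adult wild-type C57BL/6 hearts by collagenase perfusion and separated by density and sedimentation, with no sort on a surface marker described, and the methods pool the cells of a pair of hearts for a sample. The CSCs came from adult wild-type C57BL/6 hearts by removal of CD45+ and CD31+ cells and selection for c-kit, and were expanded in serum-containing medium. Per the methods, 1 clone served for most experiments, so the CSC libraries are cultures of a clone and not separate animals, and every p-value here measures the spread among such samples. The iCMs, described as cardiomyocytes differentiated from such CSCs in culture, have 3 small RNA libraries that share the fit and serve as a second comparison for the muscle miRNAs.

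A miRNA is cut from a hairpin in a longer primary transcript, and either arm of the hairpin (5p or 3p) can be kept as the mature strand. Bases 2 to 8 of the mature strand, the seed, pair with target mRNAs, so that miRNAs with the same seed can bind overlapping targets. In heart muscle, miR-1, miR-133 and the miRNAs carried in introns of myosin heavy chain genes (miR-208a, miR-208b and miR-499, the myomiRs) are the best known, and dividing cells are known for the miR-17-92 and miR-21 transcripts.

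The mature sequences below are those the largest and the most divided results turn on, from RefSeq on GRCm38.p6, with the seed in capitals. Of the 718 tested miRNAs, 603 matched a RefSeq entry by name. The first set is of muscle miRNAs that rose in aCMs, with miR-22-3p, which had the highest mean share of counts in both cell types.
miR-133b-3p: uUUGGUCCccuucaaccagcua
miR-208a-3p: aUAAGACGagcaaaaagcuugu
miR-208b-3p: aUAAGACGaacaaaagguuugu
miR-499-5p: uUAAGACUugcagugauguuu
miR-490-3p: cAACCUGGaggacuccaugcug
miR-22-3p: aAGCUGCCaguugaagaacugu
MiR-133b-3p lies at chr1:20682834-20682855 (+ strand). The myomiRs lie within myosin genes, miR-208a-3p at chr14:54949072-54949093 (- strand) in an intron of Myh6, miR-208b-3p at chr14:54975710-54975731 (- strand) in an intron of Myh7, and miR-499-5p at chr2:155622893-155622913 (+ strand) in an intron of Myh7b. MiR-490-3p is at chr6:36421800-36421821 (+ strand) within Chrm2 and miR-22-3p at chr11:75463772-75463793 (+ strand). MiR-208a-3p and miR-208b-3p have the same seed and differ by G10A, A16G and C18U, counted from the 5′ end with the base of miR-208a-3p first.

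The second set fell in aCMs and holds the miR-182, miR-183 and miR-96 cluster, a single transcript known from sensory organs, and miR-21a-5p.
miR-182-5p: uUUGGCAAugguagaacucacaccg
miR-183-5p: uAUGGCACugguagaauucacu
miR-96-5p: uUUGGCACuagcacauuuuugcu
miR-21a-5p: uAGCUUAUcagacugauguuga
These lie at chr6:30165962-30165986 (- strand), chr6:30169711-30169732 (- strand) and chr6:30169506-30169528 (- strand) for the cluster, and chr11:86584120-86584141 (- strand) for miR-21a-5p. None of the 4 seeds is the same as another.

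The third set is of miRNAs that share a seed, or a seed shifted by a base, and moved in opposite directions.
miR-10b-5p: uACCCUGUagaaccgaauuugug
miR-10a-5p: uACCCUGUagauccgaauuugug
miR-99a-5p: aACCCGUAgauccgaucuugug
miR-100-5p: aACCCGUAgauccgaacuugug
miR-99b-5p: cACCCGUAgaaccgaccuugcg
miR-146a-5p: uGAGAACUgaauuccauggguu
miR-146b-5p: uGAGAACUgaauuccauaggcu
miR-148a-3p: uCAGUGCAcuacagaacuuugu
miR-148b-3p: uCAGUGCAucacagaacuuugu
miR-34a-5p: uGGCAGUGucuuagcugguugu
miR-34b-5p: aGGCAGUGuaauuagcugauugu
miR-101a-3p: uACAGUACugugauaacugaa
miR-101b-3p: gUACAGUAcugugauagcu
miR-195a-5p: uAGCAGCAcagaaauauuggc
miR-497a-5p: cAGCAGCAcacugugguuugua
miR-322-5p: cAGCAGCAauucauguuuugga
miR-15b-5p: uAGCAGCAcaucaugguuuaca
MiR-10b-5p (chr2:74726074-74726096, + strand, in the HoxD cluster) and miR-10a-5p (chr11:96317186-96317208, + strand, in the HoxB cluster) differ by a single base, A12U, with the base of miR-10b-5p first. MiR-99a-5p (chr16:77598940-77598961, + strand) differs from miR-100-5p (chr9:41531437-41531458, + strand) by U16A, and from miR-99b-5p (chr17:17830194-17830215, + strand) by A1C, U11A, U16C and U21C. MiR-146a-5p (chr11:43374435-43374456, - strand) and miR-146b-5p (chr19:46342790-46342811, + strand) differ by G18A and U21C, and miR-148a-3p (chr6:51269829-51269850, - strand) and miR-148b-3p (chr15:103285185-103285206, + strand) by C9U and U10C. The remaining members lie at chr4:150068473-150068494 (+ strand) (miR-34a-5p), chr9:51103610-51103632 (- strand) (miR-34b-5p), chr4:101346957-101346977 (- strand) (miR-101a-3p), chr19:29135338-29135356 (+ strand) (miR-101b-3p), chr11:70235062-70235082 (+ strand) (miR-195a-5p), chr11:70234730-70234751 (+ strand) (miR-497a-5p), chrX:53054306-53054327 (- strand) (miR-322-5p) and chr3:69009775-69009796 (+ strand) (miR-15b-5p).

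The aCM libraries held 8218585 and 7593437 counts, against 6087790, 4089474 and 6203774 in CSCs. Levels are in CPM, counts scaled to a common library size with edgeR's TMM factors. Of 20254 genes tested in total RNA, 24.2% were called higher and 20.4% lower in aCMs, at an edgeR adjusted p below 0.05 and 2.5-fold. Beside these shares, 8 of 8 cardiomyocyte mRNA markers were called higher in aCMs. Their summed level was 153093 to 180797 CPM in aCMs and 51.6 to 119 CPM in CSCs. Markers of other cells were in the aCM samples as well, with 8 of 8 endothelial markers higher (summed level 1186 to 1533 CPM in aCMs and 5.50 to 9.65 CPM in CSCs). Further, 5 of 8 macrophage and leukocyte markers were higher and 1 lower (79.4 to 165 CPM in aCMs and 20.2 to 70.4 CPM in CSCs). Of the smooth muscle and pericyte markers, 7 of 8 were higher and 1 lower (1434 to 1733 CPM in aCMs and 308 to 445 CPM in CSCs). The mesenchymal and fibroblast markers were divided, with 4 of 8 higher in aCMs (Dcn, Tcf21, Postn and Thy1), 3 lower (Col1a1, Col3a1 and Pdgfra) and Tcf21 at 0 in every CSC library. Their summed level, 340 to 569 CPM in aCMs against 6110 to 13133 CPM in CSCs, was carried by Col1a1 and Col3a1. The receptor that defined the sort, Kit, had 9.86 and 6.80 CPM in aCMs, against 0.0836, 0.0303 and 0 CPM in CSCs. The other CSC markers, Ly6a and Abcg2, were not called, with 126 and 152 CPM of Ly6a in aCMs, against 197, 511 and 283 CPM in CSCs, and 37.9 and 43.3 CPM of Abcg2 in aCMs, against 50.7, 50.0 and 48.8 CPM in CSCs. The Y-linked Eif2s3y had 0.263 and 84.8 CPM in the aCM samples, against 0.117, 0.106 and 0.175 CPM in CSCs. The aCM samples thus differ from each other in it, and the iCM samples (29.7 to 33.7 CPM) stand apart from the CSC samples they are described as derived from. Xist had 125 and 68.8 CPM in aCMs, against 602, 635 and 562 CPM in CSCs.

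Of the 718 miRNAs, 254 (35.4%) were higher and 241 (33.6%) lower in aCMs, where a call asks for an edgeR adjusted p under 0.05 with a change of 0.6 or more on the log2 scale. The called changes were large. Their median was 3.55 on the log2 scale for the higher miRNAs and -2.96 for the lower, and 152 and 119 miRNAs passed 8-fold. No value of the aCM libraries overlapped the CSC libraries for 288 miRNAs (40.1%) above them and 286 (39.8%) below. Replicates of a cell type ranked the miRNAs alike, with Spearman's rho of at least 0.967 within a group over the tested miRNAs, and a median of 0.627 between an aCM and a CSC library. These changes are relative to the rest of the library, and in bulk samples fewer cells of a type and less RNA per cell cannot be told apart. The 4 most abundant miRNAs of each library took 61.3% and 56.5% of the counts in aCMs, against 37.2%, 38.9% and 35.1% in CSCs. With library totals as the only scaling the median of all miRNAs was -1.3 in place of 0. The calls were 164 higher and 366 lower, and the share of higher ones among the calls was 30.9% in place of 51.3%. All 405 miRNAs called under both scalings had the same direction, and 90 of the 495 calls were lost. Among the called miRNAs, 22 changed sign.

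**Figure D1:**
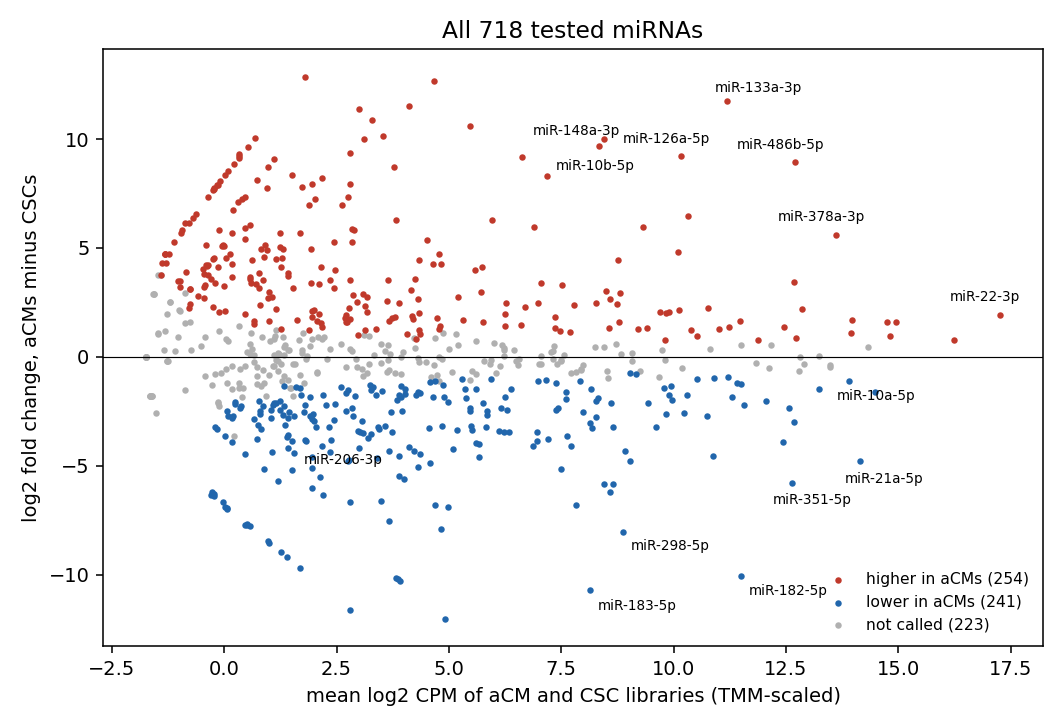
Log2 fold change (aCMs minus CSCs) against mean log2 CPM over the 2 aCM and 3 CSC libraries, with 1 point for each of the 718 tested miRNAs. Red points (254) were called higher and blue points (241) lower in aCMs, and both directions are found among scarce and abundant miRNAs.

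The contents of the libraries differed first of all in a handful of abundant miRNAs. MiR-22-3p, known for a part in cardiac hypertrophy, had the highest mean share in both, with 21.6% and 16.4% of all counts in aCMs, against 12.8%, 12.9% and 11.4% in CSCs. MiR-133a-3p, a muscle miRNA that restrains cardiomyocyte proliferation, took 19.4% and 15.8% in aCMs, against 0.00742%, 0.00878% and 0.0226% in CSCs. MiR-486b-5p, a muscle and red cell miRNA at the Ank1 locus, took 13.1% and 16.8% in aCMs, against 0.0567%, 0.0871% and 0.0850% in CSCs. It led in the second aCM library. The fourth by mean share in aCMs was miR-378a-3p, which lies in the gene of the mitochondrial coactivator PGC-1β, with 7.19% and 6.81% in aCMs and 0.390%, 0.272% and 0.402% in CSCs. In CSCs the places after miR-22-3p belonged to miR-21a-5p, a miRNA of dividing and stressed cells, with 0.111% and 0.159% in aCMs against 8.03%, 10.9% and 8.96% in CSCs. MiR-143-3p followed with 4.25% and 7.43% in aCMs against 9.05%, 8.11% and 8.21% in CSCs, and then miR-182-5p with 0.00264% and 0.00215% in aCMs against 7.28%, 4.82% and 6.62% in CSCs. Of these 7, only miR-143-3p has a direction that depended on the scaling, higher in aCMs after TMM (log2 fold change 0.75, edgeR adjusted p = 0.0204) and lower by library totals (-0.54, not called), and its call was lost without the second aCM library (0.32) or the second CSC library (0.68).

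Muscle miRNAs had the highest median of the lists. Of 12 tested members of the list (miR-1a, miR-133a, miR-133b, miR-206, miR-208a, miR-208b and miR-499), 10 were higher in aCMs, 1 was lower and 1 was not called, with a median log2 fold change of 10.08 (10.00 with members at 0 in a group set to their bound), against a median of 0 over all 718. MiR-133a-3p had 366850 and 288280 CPM in aCMs, against 62.1, 62.1 and 163 in CSCs. No CSC library came near an aCM library, and the difference was 11.74 on the log2 scale (SE 0.55, edgeR adjusted p = 1.7e-09). MiR-133b-3p, from the paralogous transcript shared with miR-206, had 2420 and 4653 CPM in aCMs, against 2.06, 1.73 and 2.91 in CSCs (log2 fold change 10.60, SE 0.61, edgeR adjusted p = 1.5e-08). Its partner on that transcript, miR-206-3p, was lower in aCMs (-5.21, from few counts given below). Whether reads of the far more abundant miR-133a-3p were counted as miR-133b-3p was not tested. MiR-208a-3p, from the intron of Myh6, had 337 and 470 CPM in aCMs, against 0.412, 0.519 and 0.233 in CSCs (log2 fold change 10.01, SE 0.51, edgeR adjusted p = 4.6e-09). Its other arm, miR-208a-5p, had 164 and 115 CPM in aCMs, against 0, 0 and 0 in CSCs, at least 1015-fold higher in aCMs when 3 counts are taken for the CSC group. MiR-499-5p had 759 and 705 CPM in aCMs, against 0.686, 0 and 1.05 in CSCs (log2 fold change 10.15, SE 0.68, edgeR adjusted p = 5.2e-08).

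MiR-1a-3p, a miRNA of all striated muscle, had 4347 and 4511 CPM in aCMs, against 0.412, 0.173 and 1.28 in CSCs (log2 fold change 12.65, SE 0.82, edgeR adjusted p = 4.3e-08). Its counts over both aCM libraries were 37621, however, against 2791400 for miR-133a-3p, so that miR-1a-3p made up 0.230% and 0.247% of the aCM libraries. Both are cut from shared primary transcripts in mouse. The paper describes miR-1 as the miRNA with the highest abundance in cardiomyocytes. Its qPCR put miR-1 and miR-499 highest in aCMs among the miRNAs it measured. How well read shares compare the levels of different miRNAs was not tested here. MiR-206-3p, the skeletal muscle member of the miR-1 seed family, was the single muscle miRNA lower in aCMs, with 2 counts in aCMs and 200 in CSCs, a 39.2-fold lower level in aCMs with a 95% counting interval of 10.7 to 326. MiR-208b-5p had 0 counts in aCMs and 1 in CSCs and was not called. Of 8 skeletal muscle mRNA markers, 4 were called higher in aCMs (Acta1, Myh1, Myh2 and Myh4). Myod1, Myf5, Myog and Pax7 stayed below the filter and were not tested, with at most 2.10 CPM (Pax7) in an aCM sample. The summed level of the list was 806 to 833 CPM in aCMs and 0.758 to 0.769 CPM in CSCs. Acta1 carried that sum, with 544 and 792 CPM in aCMs. The skeletal myosins lay mostly in the first aCM sample, with 94.0 and 1.73 CPM of Myh1, 99.4 and 2.30 CPM of Myh2 and 92.7 and 9.58 CPM of Myh4 in aCMs, against at most 0.0585 CPM of each in CSCs. Their part in these rises was not tested.

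The muscle list was also read against iCMs, the cardiomyocytes made in culture, to place the adult level. Over all miRNAs, 128 (17.8%) were higher and 317 (44.2%) lower in aCMs than in iCMs. Of the 12 muscle miRNAs, 6 were higher in aCMs, 2 lower and 4 not called. MiR-1a-3p had 4347 and 4511 CPM in aCMs, against 82.3, 381 and 182 CPM in iCMs (log2 fold change 4.36, SE 0.57, edgeR adjusted p = 3.6e-05), and miR-133a-3p had 366850 and 288280 CPM in aCMs, against 42581, 33021 and 26375 CPM in iCMs (3.27, SE 0.39, edgeR adjusted p = 1.9e-05). The myosin miRNAs split. MiR-208b-3p, carried by the fetal and slow myosin gene Myh7, had 181 and 116 CPM in aCMs, against 5697, 14523 and 11169 CPM in iCMs (-6.14, SE 0.76, edgeR adjusted p = 2.2e-05), while Myh7 mRNA itself had 1302 and 1470 CPM in aCMs, against 1146, 2246 and 871 CPM in iCMs. The miRNA groups did not overlap and those of its host mRNA did. MiR-208a-3p was higher in aCMs than in iCMs by 1.05 (SE 0.35, edgeR adjusted p = 0.019) after TMM, a direction that turned to -0.07 with library totals and a call lost without the second aCM library (0.79). MiR-499-5p was not called (0.89, SE 0.47, edgeR adjusted p = 0.12), but was called higher with DESeq2 (1.30) and in a fit of the compared groups alone (1.56), and came to -0.22 with library totals.

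**Figure D2:**
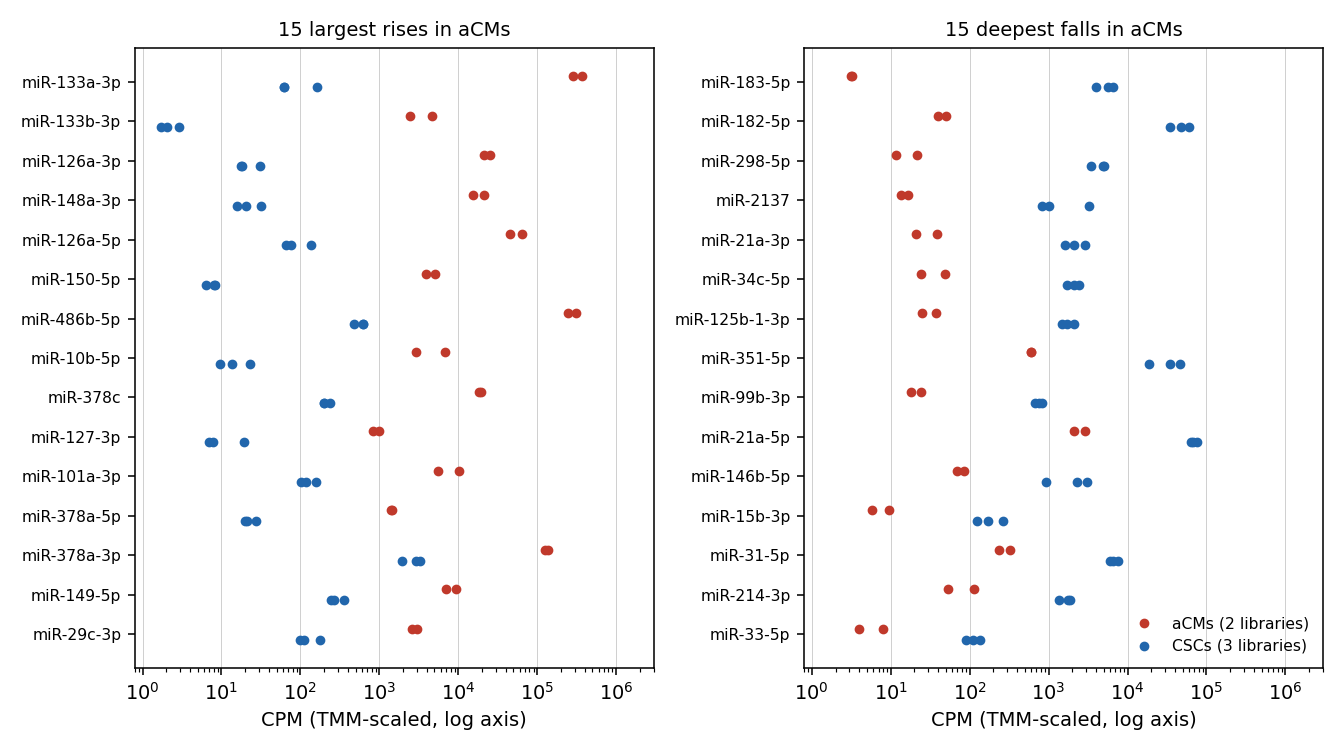
CPM on a log axis in each of the 2 aCM (red) and 3 CSC (blue) libraries for the 15 largest rises (left) and 15 deepest falls (right) among called miRNAs with a mean log2 CPM of at least 5 that were chosen for groups that stay apart. Levels in aCMs run from 366850 and 288280 CPM in aCMs for miR-133a-3p to 3.22 and 3.13 CPM for miR-183-5p.

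Beyond the muscle list, the metabolic miR-378 family rose as a whole, with 5 of 5 tested members higher and a median log2 fold change of 5.97. MiR-378a-3p had 135830 and 124690 CPM in aCMs, against 3262, 1920 and 2898 in CSCs (log2 fold change 5.60, SE 0.30, edgeR adjusted p = 7.7e-09), and miR-378c, which has nearly the same mature sequence, had 18425 and 19299 CPM in aCMs, against 237, 200 and 202 in CSCs, so part of the family may have been counted from shared reads. MiR-486b-5p had 247080 and 308250 CPM in aCMs, against 474, 616 and 613 in CSCs (log2 fold change 8.93, SE 0.32, edgeR adjusted p = 5.2e-10). Its twin from the opposite strand of the same locus, miR-486a-5p, had 3 and 3 counts in aCMs and 0 in each CSC library and was not tested, and the files do not show how reads were divided between the 2. Of the list the study calls cardiomyo-miRs, which joins known myogenic miRNAs with those most abundant in these aCM samples and is no independent evidence of direction, 17 of 18 tested members were higher in aCMs and none lower. MiR-490-3p, from Chrm2, the gene of the cardiac muscarinic receptor, had 562 and 526 CPM in aCMs, against 0.275, 0.173 and 0.116 in CSCs (log2 fold change 11.38, SE 0.52, edgeR adjusted p = 1.7e-09). MiR-204-5p, best known from the eye and kidney, had 570 and 701 CPM in aCMs, against 0.412, 0.173 and 0.349 in CSCs (log2 fold change 10.87, SE 0.48, edgeR adjusted p = 1.7e-09).

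Single members of other families rose too. MiR-29c-3p, a repressor of collagen mRNAs, had 3036 and 2617 CPM in aCMs, against 175, 98.4 and 111 in CSCs (log2 fold change 4.46, SE 0.34, edgeR adjusted p = 2.0e-07). MiR-148a-3p had 21254 and 15527 CPM in aCMs, against 20.2, 15.9 and 31.3 in CSCs (log2 fold change 9.67, SE 0.41, edgeR adjusted p = 1.6e-09), and miR-149-5p, from an intron of the glypican gene Gpc1, had 9261 and 7085 CPM in aCMs, against 246, 358 and 267 in CSCs. MiR-101a-3p, which targets the histone methyltransferase Ezh2, had 5464 and 10313 CPM in aCMs, against 159, 101 and 116 in CSCs (log2 fold change 5.97, SE 0.38, edgeR adjusted p = 3.5e-08). The miR-30 family, abundant in heart, had 8 of 11 tested members higher and none lower, with smaller changes (median 1.70). MiR-30a-5p, its leading member, had 47426 and 60308 CPM in aCMs, against 19748, 15726 and 17620 in CSCs (log2 fold change 1.61, SE 0.23, edgeR adjusted p = 4.1e-05), a call lost with library totals (0.31). With library totals 5 of the 11 were higher and 3 lower, and without the first CSC library 1 was lower. Over all 718 tested miRNAs, 35.4% were higher and 33.6% lower, and with library totals 164 were higher and 366 lower. Beside these, 7 of 22 tested members of let-7 and miR-98, miRNAs of differentiated cells, were higher and 5 lower. Their median was 0.00, and with library totals 0 were higher and 13 lower. Without the first aCM library 3 were lower, and without the second 2. Let-7a-5p had 11428 and 8742 CPM in aCMs, against 4244, 3557 and 3761 in CSCs, a call lost with library totals (0.08), whereas let-7e-5p had 409 and 430 CPM in aCMs, against 3210, 2028 and 2258 in CSCs (log2 fold change -2.57, SE 0.33, edgeR adjusted p = 1.9e-05). MiR-34a-5p, a p53 target that accumulates in the ageing heart, had 368 and 539 CPM in aCMs, against 0.824, 1.04 and 1.28 in CSCs (log2 fold change 8.72, SE 0.48, edgeR adjusted p = 8.6e-09).

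MiRNAs that mark other cells of the heart were among the largest rises, beside the mRNA markers given above. MiR-126a-3p, the endothelial miRNA from Egfl7, had 21065 and 25087 CPM in aCMs, against 17.98, 17.5 and 30.7 in CSCs (log2 fold change 10.03, SE 0.41, edgeR adjusted p = 1.6e-09), and its other arm had 45476 and 64038 CPM in aCMs, against 65.2, 75.2 and 137 in CSCs. The endothelial mRNA Pecam1 moved with them, with 233 and 287 CPM of Pecam1 in aCMs, against 2.54, 1.44 and 2.49 CPM in CSCs. Of 9 tested leukocyte miRNAs, 7 were higher, 1 lower and 1 not called, and with library totals 6 were higher and 2 lower. MiR-150-5p, a lymphocyte miRNA, had 5022 and 3855 CPM in aCMs, against 8.37, 6.40 and 8.03 in CSCs (log2 fold change 9.18, SE 0.73, edgeR adjusted p = 2.6e-07), and miR-223-3p, a myeloid miRNA, had 34.5 and 76.9 CPM in aCMs, against 0.275, 0.346 and 0.116 in CSCs. The leukocyte mRNA markers did not all move alike. Ptprc mRNA, which encodes CD45, had 1.84 and 3.07 CPM in aCMs, against 0, 0.0152 and 0.0585 CPM in CSCs. Cd14 was called lower, with 1.71 and 3.64 CPM in aCMs, against 62.8, 15.55 and 24.1 CPM in CSCs. Cd68 and Csf1r were not called. All 3 tested erythroid miRNAs were higher at low levels (2 of them with library totals), with a sum of 31.3 and 17.6 CPM in aCMs, against 1.24, 1.21 and 3.14 CPM in CSCs, beside a summed 16.2 to 35.9 CPM of erythroid mRNA markers in aCMs and 0.500 to 2.54 CPM in CSCs. The smooth muscle pair miR-143 and miR-145 had 4 of 5 tested members higher and none lower, and 2 higher with library totals. MiR-145a-5p had 1755 and 2190 CPM in aCMs, against 580, 353 and 506 in CSCs (log2 fold change 2.04, SE 0.40, edgeR adjusted p = 5.6e-04), a call lost with library totals (0.75). The part of other cells in the aCM preparation in these rises was not tested.

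None of the 20 pluripotency miRNAs with a count in the table passed the filter. For scale in what follows, 35.4% of all 718 tested miRNAs were higher and 33.6% lower. Of the 5 tested members of the epithelial miR-200 family, 2 were higher and none lower (none in either direction with library totals, and 1 or 0 higher without the first or the second aCM library), with a sum of 13.8 and 15.2 CPM in aCMs, against 7.41, 5.19 and 4.54 CPM in CSCs.

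The deepest falls came from a few transcripts. All 6 mature miRNAs of the miR-182, miR-183 and miR-96 cluster were lower in aCMs, with a median log2 fold change of -10.25 (-10.14 with bounds), and their summed level was 53.1 and 42.9 CPM in aCMs, against 66900, 38330 and 54760 CPM in CSCs. MiR-182-5p had 49.9 and 39.3 CPM in aCMs, against 60855, 34053 and 47781 in CSCs (log2 fold change -10.06, SE 0.54, edgeR adjusted p = 7.7e-09). MiR-183-5p had 3.22 and 3.13 CPM in aCMs, against 5634, 3950 and 6524 in CSCs (log2 fold change -10.71, SE 0.53, edgeR adjusted p = 3.2e-09). MiR-96-5p was counted once in aCMs and 3796 times in CSCs, a ratio with a 95% counting interval of 267 to 58824, and miR-182-3p had 0 counts in aCMs and 1253 in CSCs, at least 164-fold lower in aCMs. At the imprinted Gnas locus, 4 of 4 tested miRNAs of the miR-296 and miR-298 pair were lower. MiR-298-5p had 21.6 and 11.8 CPM in aCMs, against 5017, 3472 and 4835 in CSCs (log2 fold change -8.05, SE 0.53, edgeR adjusted p = 4.6e-08). Of the miR-344 family, 6 of 6 tested members were lower (median -8.86, or -5.24 with bounds), and miR-344d-3p was counted once in aCMs and 12574 times in CSCs.

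MiRNAs of dividing and mesenchymal cells were lower as well. MiR-21a-5p had 2092 and 2917 CPM in aCMs, against 67146, 77027 and 64636 in CSCs (log2 fold change -4.80, SE 0.30, edgeR adjusted p = 3.5e-08), and miR-21a-3p from the same hairpin had 21.2 and 39.0 CPM in aCMs, against 1610, 2910 and 2083 in CSCs. Of the miR-17-92 cluster and its paralogs, which act in cell proliferation, 16 of 23 tested members were lower and none higher (median -1.63), and the count was 17 lower with library totals. MiR-92a-3p, its most abundant member, had 12067 and 11685 CPM in aCMs, against 28405, 49220 and 32745 in CSCs (log2 fold change -1.63, SE 0.37, edgeR adjusted p = 0.0017), and miR-17-5p had 81.6 and 101 CPM in aCMs, against 350, 710 and 519 in CSCs (log2 fold change -2.53, SE 0.41, edgeR adjusted p = 1.3e-04). All 4 members of miR-221 and miR-222, repressors of the cell cycle inhibitor p27, were lower, with 258 and 156 CPM in aCMs, against 2324, 1916 and 1632 in CSCs for miR-222-3p. MiR-31-5p had 324 and 238 CPM in aCMs, against 7526, 6542 and 5978 in CSCs (log2 fold change -4.57, SE 0.37, edgeR adjusted p = 3.0e-07). Of 6 tested members of miR-199 and miR-214, 5 were lower and 1, miR-199b-5p, was higher (1.86). With library totals 5 were lower and none higher. MiR-214-3p, from the transcript Dnm3os of mesenchymal cells, had 53.6 and 113 CPM in aCMs, against 1749, 1347 and 1878 in CSCs. From the same transcript, miR-199a-5p had 205.6 and 425 CPM in aCMs, against 1876, 1722 and 2171 in CSCs. The mesenchymal mRNA markers went both ways, as given above, with 29.7 and 68.7 CPM of Col1a1 in aCMs, against 4409, 3177 and 4607 CPM in CSCs, and 184 and 242 CPM of Dcn in aCMs, against 84.7, 20.2 and 68.0 CPM in CSCs. MiR-33-5p, which sits in the gene of the sterol regulator SREBP-2 and represses cholesterol export, had 3.91 and 7.95 CPM in aCMs, against 109, 89.7 and 137 in CSCs (log2 fold change -4.23, SE 0.47, edgeR adjusted p = 6.0e-06).

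**Figure D3:**
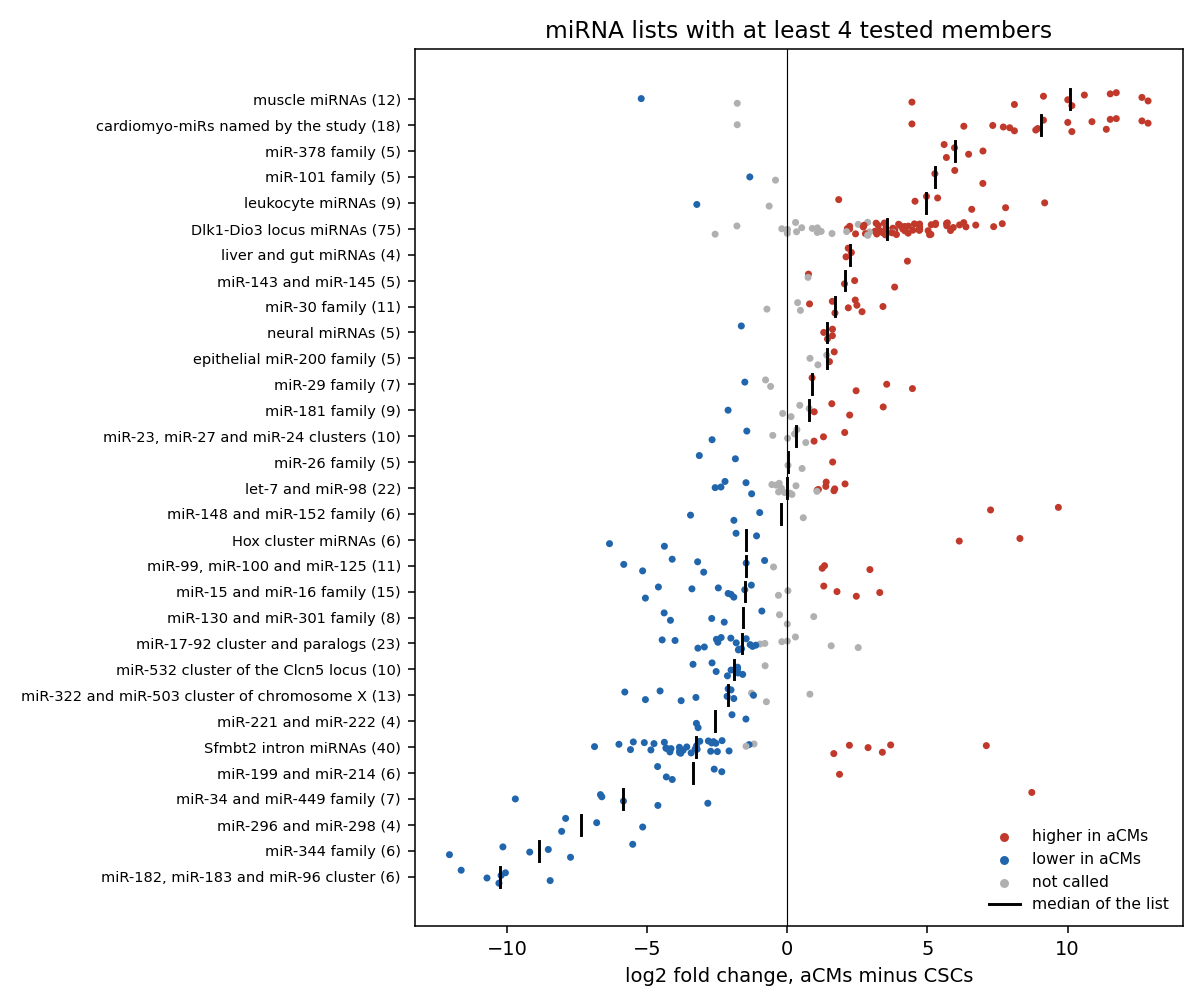
Log2 fold change (aCMs minus CSCs) of every tested member of each miRNA list with at least 4 tested members, with the number tested in brackets, lists ordered by their median (black bar). Red members were called higher, blue lower and grey not, and the medians run from 10.08 for muscle miRNAs to -10.25 for the miR-182, miR-183 and miR-96 cluster, with lists such as let-7 and miR-98 on both sides of 0.

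In several genomic clusters the called members had a single direction. The miR-322 and miR-503 cluster of the X chromosome had 10 of 13 tested members lower and none higher (median -2.11). MiR-351-5p, its member with the miR-125 seed, had 603 and 591 CPM in aCMs, against 46332, 18964 and 34353 in CSCs (log2 fold change -5.80, SE 0.49, edgeR adjusted p = 4.7e-07). The groups did not overlap. The miR-532 cluster in Clcn5, also on the X chromosome, had 9 of 10 lower, and 5 without the first aCM library. At the imprinted Dlk1-Dio3 locus on chromosome 12, 54 of 75 tested miRNAs were higher in aCMs and none lower (median 3.56, or 3.13 with the 22 members at 0 in a group set to their bound). The rise was from a low level, with a summed 1334 and 1819 CPM in aCMs, against 30.1, 42.0 and 67.6 CPM in CSCs. The iCM libraries held 32390 to 54990 CPM of the same miRNAs. The filter ran over all 8 small RNA libraries, so members could pass it through iCMs alone. MiR-412-3p, miR-412-5p and miR-543-5p had 0 counts in aCMs and in CSCs. Some calls rest on few counts, such as miR-543-3p with 3 in aCMs and 0 in CSCs, a bound of 2.55-fold. The numbers tested and called at this locus thus depend on iCMs and on scarce members. MiR-127-3p, which lies antisense to the imprinted gene Rtl1, had 833 and 980 CPM in aCMs, against 7.002, 7.78 and 19.5 in CSCs (log2 fold change 6.30, SE 0.47, edgeR adjusted p = 1.6e-07). With library totals 37 of the 75 were higher and none lower. The repetitive family in the intron of Sfmbt2 went the other way, with 32 of 40 tested members lower and 6 higher (median -3.27). Its members are near copies of each other, so reads may have been split between them, and its summed level was low in both, 90.4 and 105 CPM in aCMs against 568, 747 and 804 CPM in CSCs.

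Both arms of 198 hairpins were tested, and the arms of a hairpin share a precursor. Of 116 pairs with both arms called, 52 were higher together and 62 lower together. The other 2 split. MiR-15a-5p had 992 and 1054 CPM in aCMs, against 402, 397 and 446 in CSCs, while miR-15a-3p had 3.91 and 7.23 CPM in aCMs, against 11.3, 19.7 and 9.89 in CSCs. MiR-199b-5p had 25.8 and 61.0 CPM in aCMs, against 10.0, 5.53 and 19.9 in CSCs, while miR-199b-3p had 1692 and 2972 CPM in aCMs, against 13970, 9713 and 11675 in CSCs. The mature sequence of miR-199b-3p is identical to that of miR-199a-3p, the only identical pair among tested miRNAs with a RefSeq entry, and the table puts 2332 CPM of aCMs and 11790 CPM of CSCs (means) under the 199b name and 1.54 and 38.4 CPM under the 199a name, so the 3p value of this pair does not belong to a single hairpin. Neither split was stable. MiR-15a-5p came to -0.01 with library totals, and miR-15a-3p lost its call without the first aCM library (-0.91) or the second CSC library (-0.92). MiR-15a-3p also lost it with DESeq2 (-0.95) and with TMM without the 10 most abundant miRNAs (-0.95). MiR-199b-5p lost its call without the second aCM library (1.11) and with library totals (0.56).

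Among tested miRNAs with a sequence, 39 seeds had at least 2 called members, of which 14 had members higher only, 10 lower only and 15 members in both directions. An example was miR-10. MiR-10b-5p had 2882 and 6864 CPM in aCMs, against 13.5, 9.51 and 23.1 in CSCs (log2 fold change 8.30, SE 0.55, edgeR adjusted p = 4.6e-08). MiR-10a-5p, with the same seed and the single difference A12U, had 7468 and 12237 CPM in aCMs, against 19815, 18605 and 24807 in CSCs (log2 fold change -1.10, SE 0.29, edgeR adjusted p = 0.0043). CSCs thus held 21080 CPM of miR-10a-5p and 15.4 CPM of miR-10b-5p on average, listed apart although 1 base separates the sequences. With library totals miR-10b-5p was higher (6.997) and miR-10a-5p lower (-2.40), while without the first aCM library the call for miR-10a-5p was lost (-0.78, edgeR adjusted p = 0.0664).

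In the miR-99 and miR-100 group, whose seed is ACCCGUA, miR-99a-5p had 1620 and 1479 CPM in aCMs, against 222.9, 138 and 242 in CSCs (log2 fold change 2.95, SE 0.32, edgeR adjusted p = 4.9e-06). MiR-99b-5p had 1554 and 2241 CPM in aCMs, against 16202, 14294 and 14514 in CSCs (log2 fold change -2.98, SE 0.33, edgeR adjusted p = 5.5e-06). MiR-100-5p was lower by a small margin (-0.81), a call lost on leaving out any library but the first of CSCs (-0.51 to -0.87). The call was also lost with DESeq2 (-0.47) and with TMM without the 10 most abundant miRNAs (-0.47). Each miRNA of this group stands beside a let-7 and a miR-125 gene. At the miR-99b locus all 6 tested mature miRNAs, of miR-99b, let-7e and miR-125a, were lower. In the miR-146 pair, which restrains NF-κB signalling, miR-146a-5p had 317 and 389 CPM in aCMs, against 100, 83.8 and 112 in CSCs (log2 fold change 1.83, SE 0.32, edgeR adjusted p = 2.2e-04), a call lost with library totals (0.53), and miR-146b-5p had 84.2 and 68.5 CPM in aCMs, against 3092, 940 and 2265 in CSCs (log2 fold change -4.78, SE 0.53, edgeR adjusted p = 5.5e-06). MiR-148b-3p had 1297 and 1246 CPM in aCMs, against 2928, 2160 and 2459 in CSCs, lower by 0.98 on the log2 scale (SE 0.30, edgeR adjusted p = 0.011), against the rise of miR-148a-3p given above. The call for miR-148b-3p was lost without either aCM library (-1.01 and -0.96) or the third CSC library (-0.75). It was also lost with DESeq2 (-0.65) and with TMM without the 10 most abundant miRNAs (-0.65). The miR-34 seed was divided between miR-34a-5p, higher in aCMs, and miR-34b-5p, with 0 and 1.45 CPM in aCMs, against 55.6, 73.1 and 86.1 in CSCs (log2 fold change -6.62, SE 0.75, edgeR adjusted p = 6.4e-06). MiR-34c-5p, from the transcript shared with miR-34b, had 23.9 and 48.7 CPM in aCMs, against 1714, 2094 and 2455 in CSCs.

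MiR-101a-3p and miR-101b-3p carry the same core 1 base apart, so their seeds as annotated differ, and they too moved in opposite directions. MiR-101b-3p had 440 and 711 CPM in aCMs, against 1236, 1658 and 1470 in CSCs (log2 fold change -1.34, SE 0.35, edgeR adjusted p = 0.0041), a call lost without the first aCM library (-1.03, edgeR adjusted p = 0.065). The AGCAGCA seed of the miR-15 and miR-16 family held 3 members higher, 2 lower and 1 not called. MiR-195a-5p, known for its part in the cell cycle exit of newborn cardiomyocytes, had 670 and 824 CPM in aCMs, against 103, 47.0 and 77.7 in CSCs (log2 fold change 3.30, SE 0.46, edgeR adjusted p = 3.3e-05), and miR-497a-5p from the same transcript had 792 and 956 CPM in aCMs, against 218, 127 and 130 in CSCs. On the other side miR-15b-5p had 59.3 and 62.9 CPM in aCMs, against 237, 347 and 425 in CSCs (log2 fold change -2.46, SE 0.44, edgeR adjusted p = 2.6e-04), and miR-322-5p had 1711 and 2090 CPM in aCMs, against 9716, 4806 and 8420 in CSCs. MiR-16-5p, the most abundant, had 10146 and 9265 CPM in aCMs, against 8232, 9649 and 10802 in CSCs, and its groups overlapped after TMM (0.02, not called), whereas with library totals it was called lower (-1.30, edgeR adjusted p = 0.0031).

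**Figure D4:**
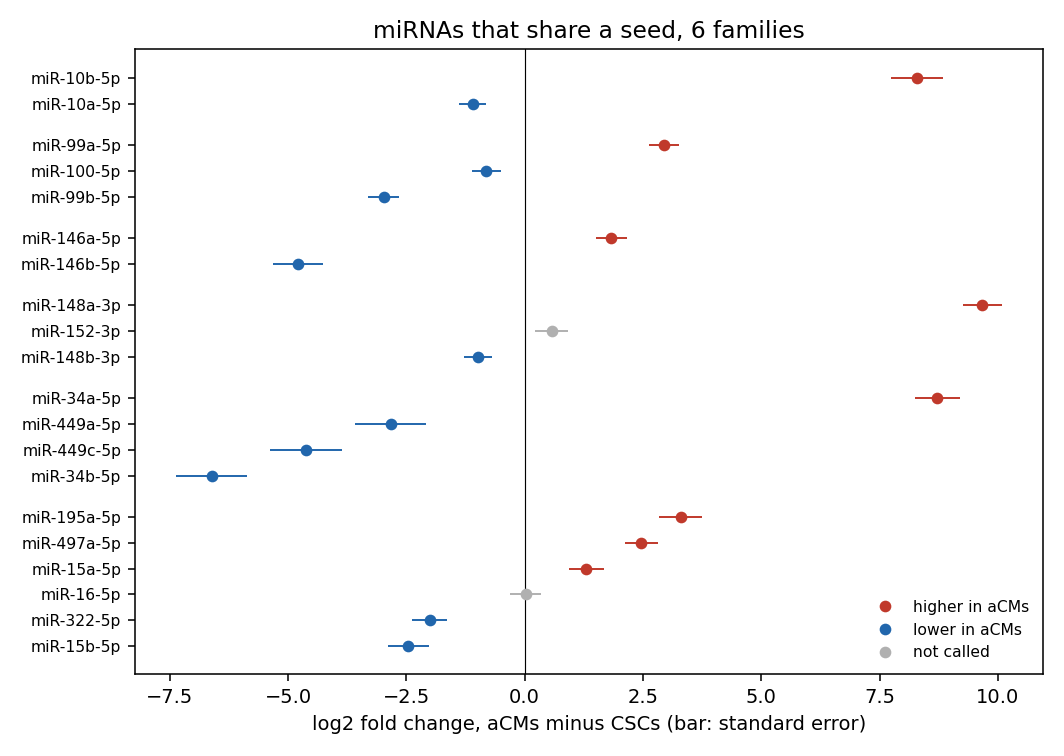
Log2 fold change (aCMs minus CSCs) of the tested members with a RefSeq match in 6 seed families (those of miR-10, miR-99, miR-146, miR-148, miR-34 and miR-15, from the top), with bars for 1 standard error of the edgeR fit. MiR-34c-5p had no RefSeq match by name and is not drawn. Each family has called members on both sides of 0, from 8.30 for miR-10b-5p against -1.10 for miR-10a-5p to 3.30 for miR-195a-5p against -2.46 for miR-15b-5p.

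Host genes gave a second readout, from total RNA libraries of the same cell types. Of 20254 genes tested there, 4906 (24.2%) were higher and 4140 (20.4%) lower in aCMs, at an edgeR adjusted p below 0.05 and 2.5-fold. For 45 miRNAs in 36 host genes, taking the arm with more counts, 29 pairs had both the miRNA and the host called, and in 28 they had the same direction, 14 higher and 14 lower. Neighbours in 1 host are not independent, as with miR-25-3p, miR-93-5p and miR-106b-5p in Mcm7. MiR-486a-3p and miR-486b-5p, from opposite strands of 1 locus, are both counted with Ank1 among the higher pairs. At most 1 of them can be cut from the Ank1 transcript. Myh6 mRNA, of the adult myosin heavy chain, had 85050 and 68450 CPM in aCMs, against 6.42, 4.93 and 5.73 CPM in CSCs, a log2 fold change of 13.72 beside 10.01 for miR-208a-3p. Ank1 rose by 8.29 beside 8.93 for miR-486b-5p, Egfl7 by 5.62 beside 9.21 for miR-126a-5p, and Ppargc1b by 4.92 beside 5.60 for miR-378a-3p. Among the lower pairs, Dnm3os fell by 5.96 beside -4.32 for miR-214-3p, Srebf2 by 3.07 beside -4.23 for miR-33-5p, and Wwp2, of cartilage and mesenchyme, by 2.55 beside -3.89 for miR-140-3p.

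Not every pair followed. MiR-582-3p was lower (-1.83, edgeR adjusted p = 0.00072) while its host Pde4d, a cAMP phosphodiesterase of heart muscle, was higher (3.94, edgeR adjusted p = 1.8e-05), the only called pair of opposite direction. MiR-204-5p rose by 10.87 while Trpm3 was not called (0.60, edgeR adjusted p = 0.31, and -0.07 with library totals). Trpm3 was scarce, with 2.10 and 2.78 CPM in aCMs, against 2.09, 0.955 and 1.81 CPM in CSCs. H19, the precursor of miR-675, was higher by 6.14 on the log2 scale while miR-675-3p had 0 counts in both groups, the aCM and the CSC libraries alike. The level of H19 was low, with 1.58 and 10.5 CPM in aCMs, against 0, 0.0758 and 0.234 CPM in CSCs.

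**Figure D5:**
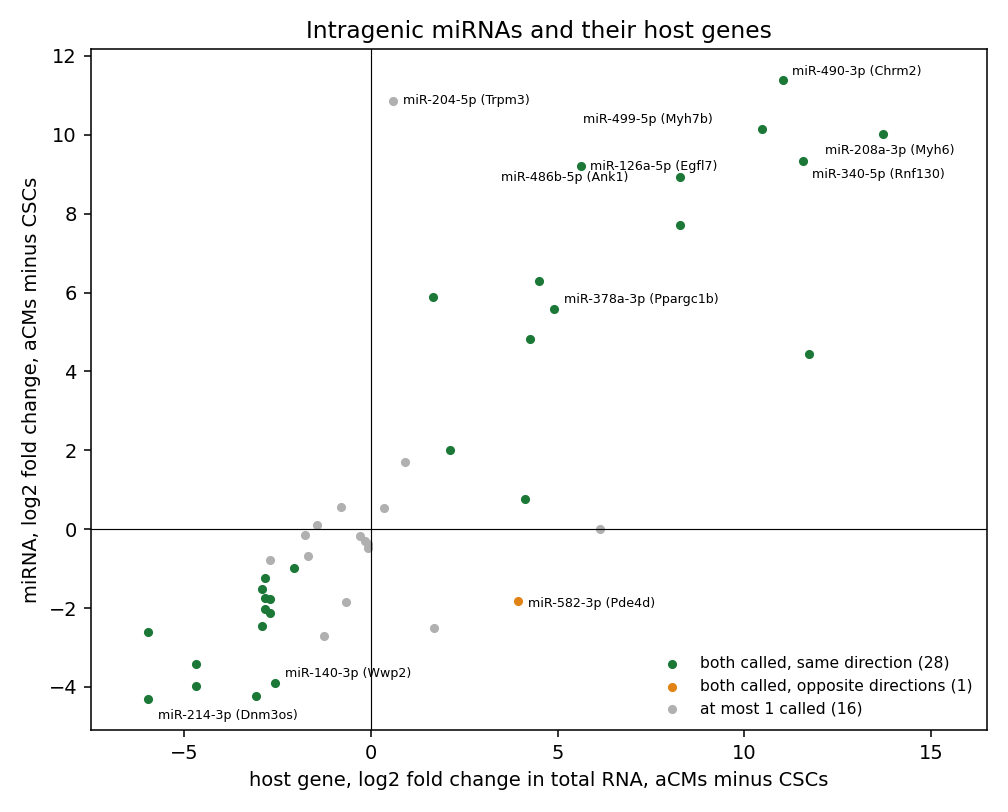
Log2 fold change (aCMs minus CSCs) of 45 miRNAs against that of their host genes in total RNA, with 1 point per miRNA. Green points (28) are pairs called in the same direction, the orange point is miR-582-3p with Pde4d, and grey points (16) have at most 1 partner called.

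GC content differed little between the directions, with a median of 47.6% among the miRNAs higher in aCMs and 50.0% among the lower ones (217 and 188 with a sequence), and both had a median length of 22 bases.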

How the data were processed

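The authors sequenced small RNA and ribosome-depleted total RNA of CSCs, iCMs and aCMs. Per the methods, small RNA reads were trimmed with Cutadapt and assigned to miRBase miRNAs with iSMART. The deposited small RNA values are raw counts per mature miRNA, and the deposited total RNA values are estimated counts per gene made in Strand NGS, which were rounded here. Columns were assigned by sample name.

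Counts were fitted with edgeR 4.0.16 (limma 3.58.1, R 4.3.3): filterByExpr over the 8 small RNA libraries, TMM scaling, quasi-likelihood tests on group means and Benjamini-Hochberg adjustment over all miRNAs or genes tested. The iCMs shared the estimate of the spread. Intervals at 95% and floors of 3 counts over a group cover counting error only. Alternatives included DESeq2 1.42.0, library totals, other filters, leaving out each library and a replicate block. The fits were tested on simulated counts.

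Named miRNAs were the 15 largest rises and 15 deepest falls among calls whose groups stay apart, from a mean log2 CPM of 5 up, the 10 most abundant of each group, and up to 4 per list. MiR-1a-3p, members of seed families and arm pairs, and single host genes were chosen after their values were seen. Members and lists were chosen with earlier results of these data known.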

Additional observations from a re-analysis of the deposited data

How the results depend on the processing

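The counts of miRNAs depended most on the scaling. Against 254 higher and 241 lower in aCMs than in CSCs, library totals gave 164 and 366. Against 128 higher in aCMs than in iCMs, library totals gave 60, and a fit of the compared groups alone gave 216. For total RNA, library totals gave 6695 genes lower in aCMs in place of 4140. DESeq2 called 273 higher and 205 lower, and the table without a filter 333 and 289. Leaving out a library gave 210 to 250 miRNAs higher and 191 to 234 lower than in CSCs, 102 to 154 and 247 to 312 against iCMs, and 4430 to 4875 and 3467 to 4098 genes.

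With library totals 22 of the 495 called miRNAs changed sign. Among the results named in the report, the values that did so were miR-143-3p (-0.54), miR-15a-5p (-0.0085) and miR-16-5p (-1.30) against CSCs, miR-208a-3p (-0.074) and miR-499-5p (-0.22) against iCMs, and Trpm3 mRNA (-0.071). MiR-16-5p also turned without the filter (-0.24), without the first aCM library (-0.045) and without the first CSC library. Without 1 library it ran from -0.075 to 0.37.

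No pairing by replicate number was seen, with correlations of same-numbered deviations from the group means of 0.14 and 0.011. The deviations of the 2 aCM libraries mirror each other, so this check cannot show that pairing is absent. A replicate block gave 242 miRNAs higher and 238 lower than in CSCs, and lost the calls of miR-100-5p and miR-143-3p among the miRNAs named. With 2 aCM libraries, leaving out 1 leaves a lone sample that is assumed to vary like the other groups. MiRNAs of a few counts were not resolved at this depth, also where they were called.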
